A study of Danio rerio with 6 samples.

Results

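The Snail factor genes snai1a and snai2 and the odd-skipped gene osr1 encode zinc finger transcription factors that act mainly as repressors. They were followed here at the sphere stage of the zebrafish embryo, in controls and after injection of a morpholino against nanog-like, now named nanog. Members were taken by name: any target of snai1a, snai1b, snai2 or osr1 that carried the gene's symbol or an older symbol in the array design, its RefSeq accession, or, with no name given, its map marker. Reverse-strand targets were left out. This gave 4 of the 38489 targets on the array, for 3 of the 4 genes: 2 targets of snai1a, 1 of snai2 and 1 of osr1. The 38489 include 1380 reverse-strand targets, which were kept in every share and rank over all targets. No target carried the name of snai1b, which was not analysed here.

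Total RNA was hybridised in 1 colour (Cy3) to arrays that report 1 brightness per target. Embryos kept in E3 fish water had received either a control morpholino (3 arrays, labelled with a normal phenotype) or nanog-like-MO1 (3 arrays, labelled with a gastrulation defect). A morpholino is an antisense oligonucleotide that blocks translation or splicing of a chosen transcript, and it is present only as long as the injected dose lasts. The labels say that the replicates came from separate cultures, but give no strain and do not say how nanog-like-MO1 acts on its transcript.

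Snail proteins bind E-box motifs through their zinc fingers and recruit corepressors to genes of epithelial adhesion, among them the E-cadherin gene, and so promote the change from epithelial to migratory cells. The family is named after the Drosophila gene snail, which is needed to form mesoderm. In the zebrafish gastrula snai1a marks the margin and involuting mesoderm, while snai2, also called slug, is best known from the neural crest. The gene osr1 is a relative of Drosophila odd-skipped, and in zebrafish it balances endoderm against kidney and vessel precursors within mesendoderm.

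The 6 arrays resembled each other, with correlations between arrays of 0.975 to 0.989 and median raw intensities of 408 to 529. The transcript of nanog itself did not pass the test (log2 change -0.02, SE 0.10, adjusted p = 0.983, limma), which is no check of a morpholino that may act on translation. The maternal genes nanog, pou5f3, sox19b and zar1 were all above the median brightness of targets. Of 7 genes of later tissues such as blood, muscle and lens, 5 were among the dimmest 25% of targets. Raw intensity is the authors' mean over the probes of a target. Normalized intensity is that value after background correction and quantile normalization, on the log2 scale. Brightness differs between targets with their probes, so levels are compared only between arrays for the same target. A target's rank in brightness is given only as a rough guide to whether it is near background.

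Of the Snail factors, snai2 fell to 43.3% of its control level, snai1a was lower by a smaller amount that did not pass the test, and osr1 fell most, to 22.5%. In all 4 targets each morpholino array lay below each control array. Such a separation was seen for 7.97% of all targets on the array, and in the authors' value table, where all 4 targets were again separated, for 8.71%. Without adjustment all 4 targets had a limma p under 0.05, as did 5.03% of all targets in the lower and 5.3% in the higher direction. With a threshold of 0.05 on the limma p adjusted over all targets, 2 of the 4 targets were lower, those of snai2 and osr1, against 0.39% of all targets called lower and 0.26% called higher. The same 2 were lower in limma on the authors' value table, against 0.535% of all targets called lower and 0.423% called higher there.

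The snai2 target OTTDART00000027124 spans 24:25675658-25681674 on build Zv7, the assembly whose scaffold names the array design uses. The place of its 12 probes within the transcript was not analysed here. Its raw intensities were 10669, 15112 and 13336 in control replicates 1 to 3 and 5516, 5513 and 5676 in morpholino replicates 1 to 3. The control arrays were all at least 10669 and differed among themselves, whereas the morpholino arrays lay close together, between 5513 and 5676. After normalization the control arrays stood at 13.42, 13.78 and 13.71 on the log2 scale and the morpholino arrays at 12.41, 12.48 and 12.39. The lowest control array was 0.94 log2 units above the highest morpholino array. The group means were 13.64 ± 0.19 and 12.43 ± 0.05 (SD, n = 3), a log2 change of -1.21 (SE 0.12, adjusted p = 0.0137, limma). This is a 2.31-fold fall, with a 95% interval of 1.88 to 2.84. An exact permutation test on the single value gave p = 0.1, the smallest p that 3 against 3 arrays allow.

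The fall of snai2 was of similar size on every set of arrays, but its call was not. Without 1 array at a time the log2 change ran from -1.31 to -1.14. Only without control replicate 1 did it still pass (adjusted p = 0.0194). Without control replicate 2 the adjusted p was 0.0547, without control replicate 3 it was 0.0878, and without morpholino replicates 1, 2 and 3 it was 0.0734, 0.0639 and 0.0788. In the authors' value table snai2 stood at 10500, 13500 and 14000 in controls and at 4730, 4980 and 5200 in morpholino embryos, and limma on the log2 of those values gave a change of -1.34 (adjusted p = 0.0142).

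**Figure D1:**
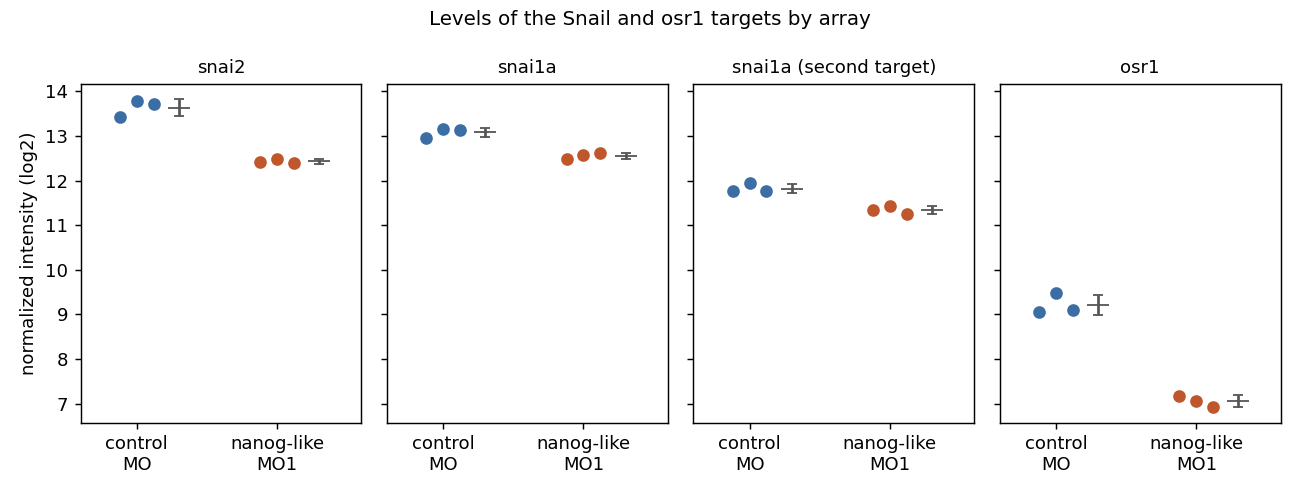
Normalized intensity on the log2 scale (vertical axis) of the 4 targets of snai2, snai1a and osr1 in each control (blue) and nanog-like-MO1 (orange) array; grey bars give the mean and SD of 3 arrays. In each panel the morpholino arrays lie below the control arrays, with a gap of 0.94 for snai2, 0.34 and 0.33 for the snai1a targets and 1.87 for osr1.

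The gene snai1a was represented by OTTDART00000025515, at Zv7 11:16400370-16405920, and OTTDART00000025516, at Zv7 11:16401341-16406470. These spans overlap, so the targets describe 1 gene and are not independent. The first target had raw intensities of 7877, 9732 and 8831 in controls and 5766, 5879 and 6610 in morpholino embryos. On the log2 scale the control arrays stood at 12.96, 13.15 and 13.14 and the morpholino arrays at 12.48, 12.57 and 12.62. The groups did not overlap, yet they were separated by only 0.34 log2 units. The log2 change was -0.53 (SE 0.11, adjusted p = 0.136, limma), or 69.4% of the control level, with a 95% interval of 58.2% to 82.7%.

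The second snai1a target gave a like value. Its raw intensities were 3603, 4108 and 3320 in controls and 2708, 2675 and 2633 in morpholino embryos. The log2 change was -0.48 (SE 0.11, adjusted p = 0.181, limma), or 71.6% of the control level. The highest morpholino array again lay below the lowest control array. This target is less uniform than the first: the coefficient of variation over its 12 probes was 1.82 to 1.97 on the 6 arrays, against 0.478 to 0.775 for the first target, and at least 99.1% of targets had a lower one. In the authors' value table it stood at 95.8, 106 and 123 in controls and 60.2, 88.9 and 64.1 in morpholino embryos, far below its raw means, while the first target kept 7350, 8010 and 7190 against 4710, 5490 and 5590. Both targets had lower means in morpholino embryos in that table too, by -0.52 (adjusted p = 0.29) and -0.62 (adjusted p = 0.332) on the log2 scale. Leaving out 1 array at a time gave -0.59 to -0.49 for the first target and -0.53 to -0.43 for the second, and neither passed in any of these fits (lowest adjusted p = 0.162 and 0.247).

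The osr1 target NM_001006079 spans 13:31628495-31634745 on Zv7 and was the member with the largest fall. Raw intensities were 587, 737 and 554 in controls and 201, 151 and 202 in morpholino embryos. Every control array was more than 2 times as bright as every morpholino array before any normalization. On the log2 scale the control arrays stood at 9.05, 9.47 and 9.11 and the morpholino arrays at 7.18, 7.07 and 6.92. The means were 9.21 ± 0.23 and 7.06 ± 0.13 (SD, n = 3), a log2 change of -2.15 (SE 0.15, adjusted p = 0.00318, limma), and it ranked 74 by size of fall among the 38489 targets. It passed in the limma fit without each array in turn, with log2 changes of -2.23 to -2.02 and adjusted p up to 0.0228.

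The size of the osr1 fall depends on how dim signal is treated. The morpholino level of 7.06 is close to the 25th percentile of target means (6.74), where background makes up much of the brightness. The fall was 4.45-fold (95% interval 3.47 to 5.71) with the main background correction. In the authors' value table the control arrays stood at 441, 570 and 462 and the morpholino arrays at 63.9, 61.5 and 52.7, an 8.25-fold fall (log2 change -3.04, SE 0.18, adjusted p = 0.000543, limma). Without background correction the log2 change was -1.83. All of these settings kept the direction and the call. The coefficient of variation over the osr1 probes was 0.415 to 0.477 on control and 0.173 to 0.359 on morpholino arrays, where array medians over all targets were 0.47 to 0.50.

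The array numbers in the labels fall into ranges, and 1 range holds all 3 control arrays and morpholino replicate 3. Inside that range the log2 difference of this morpholino array from the control mean was -1.24 for snai2, -0.47 and -0.58 for the snai1a targets and -2.29 for osr1. These are close to the values over all arrays but rest on 1 morpholino array. With the range as a block the adjusted p was 0.254 for snai2 and 0.107 for osr1, and limma called 0 targets of the whole array in that fit, with 1676 lower and 1906 higher at an unadjusted p under 0.05.

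**Figure D2:**
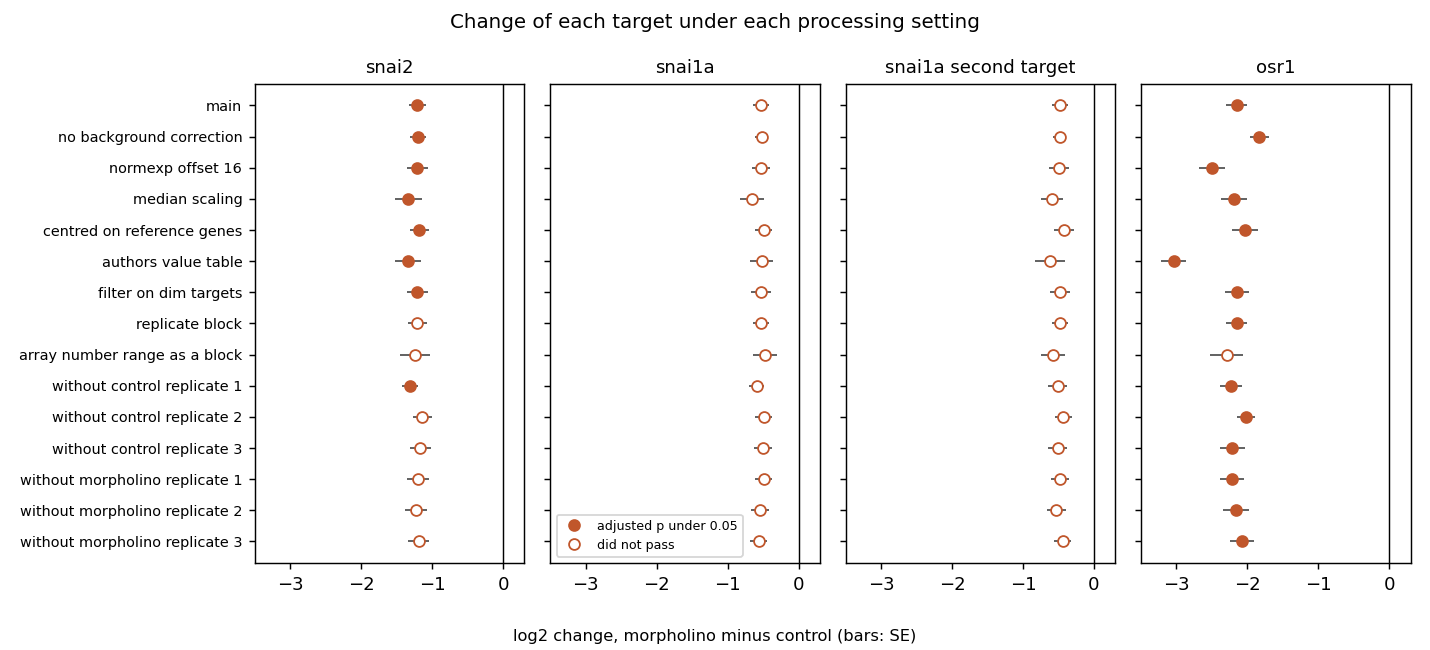
Log2 change, morpholino minus control (horizontal axis, bars give the SE), of each target under the main processing and each alternative (rows); filled points had an adjusted p under 0.05. All points lie below 0. Those of osr1 are filled except with the array number range as a block, those of snai1a are all open, and those of snai2 stay near -1.2 while many are open.

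The estimated log2 changes of the members were unequal in size. On every array the log2 value of one gene was subtracted from that of another, and the difference was compared between groups for all 3 pairs. The change of snai2 was lower than that of snai1a by -0.68 (SE 0.07, 95% interval -0.87 to -0.49). The change of osr1 was lower than that of snai2 by -0.95 (SE 0.12, 95% interval -1.27 to -0.62) and lower than that of snai1a by -1.63 (SE 0.16, 95% interval -2.06 to -1.19). In each pair the 3 morpholino arrays lay below the 3 control arrays. The exact permutation p was 0.1 for each pair and 0.1 after adjustment over the pairs, which is the smallest these numbers of arrays allow, so no pair could pass 0.05. The part of osr1 in these differences carries the same dependence on background. Its difference from snai2 was -0.63 without background correction and -1.71 in the authors' value table.

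On the array design the members do not share a region. Within 250 kb of snai1a 19 other targets were placed, among them top1a, which encodes DNA topoisomerase I, and the cone opsin genes opn1lw1, opn1lw2 and opn1sw2. Their log2 changes ran from -0.35 to 0.52 with a median of -0.03. Several, such as opn1lw1 (mean 6.16) and opn1lw2 (6.54), were below the 25th percentile of target means (6.74), while top1a stood at 13.34. A fall could hardly be measured in such dim targets. The snai2 span lies inside that of hs6st1b, which encodes a heparan sulfate sulfotransferase, and the osr1 span inside that of kmo, which encodes kynurenine 3-monooxygenase. These host genes had log2 changes of -0.08 (SE 0.25, adjusted p = 0.964) for hs6st1b and -0.35 (SE 0.23, adjusted p = 0.71) for kmo. The host values were thus smaller than those of snai2 and osr1, although the difference itself was not tested. None of the targets in the windows of the 3 genes passed in limma. At an unadjusted p under 0.05 the snai1a window held 1 higher and 0 lower, while those of snai2 and osr1 held 0. Among all targets 5.03% were lower and 5.3% higher at that unadjusted p.

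**Figure D3:**
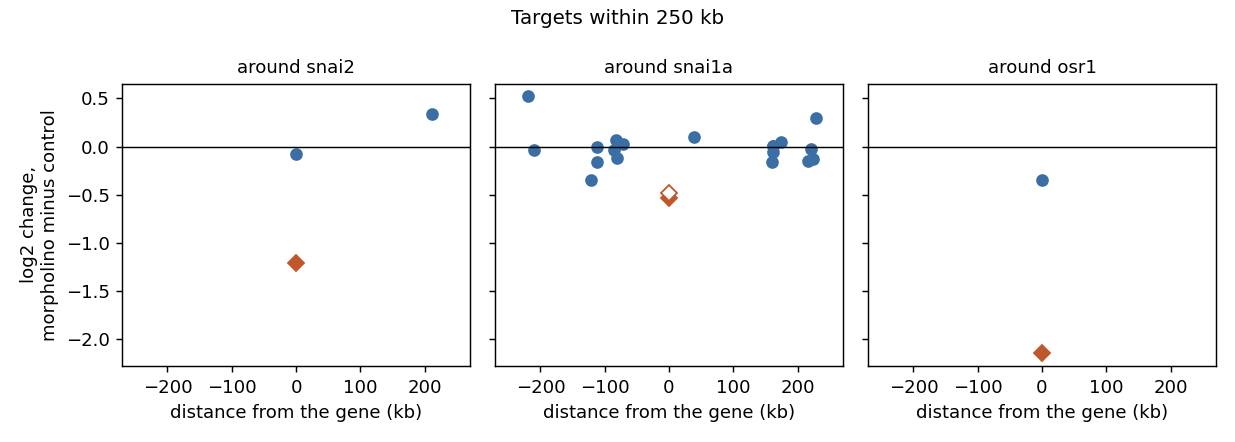
Log2 change (vertical axis) of targets within 250 kb of snai2, snai1a and osr1 against their distance from the gene in kb (horizontal axis), with 0 for a target that spans the gene. Orange diamonds are the members (open: second snai1a target) and blue points the other targets, which lie between -0.35 and 0.52.

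Other genes of the Snail superfamily and of families linked to the epithelial to mesenchymal change were not called. Besides snai1a and snai2, 8 genes of the Scratch, Zeb, Twist and Prrx families were measured, and 3 of them were among the dimmest 25% of targets. All 8 were below the median brightness, from percentile 7.3 (scrt1b) to 42.8 (prrx1b). A fall could thus hardly be measured in the dimmer ones, unlike in snai2. None passed in limma, with log2 changes from -0.90 to 0.49 and a median of 0.03, against -0.012 over all targets, and at an unadjusted p under 0.05 there was 1 lower and 1 higher. Among all targets 5.03% were lower and 5.3% higher at that unadjusted p. The largest values were -0.90 (SE 0.48, adjusted p = 0.611) for the homeobox gene prrx1b and 0.49 (SE 0.15, adjusted p = 0.324) for twist2.

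Cofactors of Snail and enzymes that control its turnover did not pass either. Of 26 listed genes 13 were measured. Of these 0 were lower and 0 higher in limma, with 0 and 1 at an unadjusted p under 0.05. Among all targets 5.03% were lower and 5.3% higher at that unadjusted p. The median log2 change of the 13 genes was 0.03. They include hdac1, a histone deacetylase, ctbp1, a corepressor, and the Gsk3 kinase genes. The largest values were those of fbxl14b, which encodes an F-box protein whose relatives mark Snail for degradation (0.67, SE 0.14, adjusted p = 0.162), and lats1, a Hippo pathway kinase gene (0.34, SE 0.16, adjusted p = 0.556).

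Genes of epithelial adhesion, a class that Snail factors repress in other settings, showed no call beside the lower snai2 level. Of 17 measured genes 0 were lower and 0 higher in limma, with 1 and 1 at an unadjusted p under 0.05 and a median log2 change of 0.08. Among all targets 5.03% were lower and 5.3% higher at that unadjusted p. The largest values were 0.75 (SE 0.31, adjusted p = 0.484) for the plakophilin gene pkp3a and 0.64 (SE 0.22, adjusted p = 0.373) for the claudin gene cldne. The E-cadherin gene cdh1, singled out after the values were seen, stood at 12.72 ± 0.21 in control and 12.90 ± 0.09 in morpholino embryos (log2, SD, n = 3, adjusted p = 0.76, limma). Of 12 mesenchymal genes 0 were lower and 0 higher, with 1 and 2 at an unadjusted p under 0.05 and a median of 0.06. The cadherin genes cdh2 (0.88, SE 0.28, adjusted p = 0.349) and cdh11 (-0.55, SE 0.43, adjusted p = 0.768) had the largest values there.

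Among genes of the intermediate and lateral mesoderm, osr1 was the only one called lower on these 6 arrays. Of 16 measured genes other than osr1, 0 were lower and 1 was higher, with 1 and 3 at an unadjusted p under 0.05 and a median log2 change of 0.15. Over all targets 0.39% were called lower and 0.26% higher, with 5.03% and 5.3% at that unadjusted p. The gene that rose was the caudal-type homeobox gene cdx4 (1.49, SE 0.19, adjusted p = 0.0331, limma). It passed without control replicate 2 and was lost without any other single array (adjusted p of 0.0983 to 0.143). The paralog osr2 stood at 7.26 ± 0.26 in controls and 7.01 ± 0.24 in morpholino embryos (SD, n = 3, adjusted p = 0.741, limma). Of the 16 genes, 2 were among the dimmest 25% of targets, lmo2 (6.37 in controls) and cdx1a (6.21). In controls osr2, wt1a (7.18), lhx1b (7.16), wt1b (7.04), hand2 (6.92) and pax2a (6.85) were already near the 25th percentile of target means (6.74). The genes foxc1b and cdx4 (7.38 each) stood little higher. A fall like that of osr1, to 7.06, could hardly be measured in such genes. Others, such as lhx1a (10.49) and gata5 (10.05), were brighter in controls.

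Inducers of mesendoderm and genes of the margin, where snai1a is known to be active, moved in both directions. Of 22 measured genes 1 was lower and 2 were higher, with 8 and 4 at an unadjusted p under 0.05 and a median log2 change of -0.23. Over all targets 5.03% were lower and 5.3% higher at that unadjusted p, while 0.39% were called lower and 0.26% higher. The T-box gene tbx16 fell (-4.15, SE 0.21, adjusted p = 0.00164), and the Brachyury gene tbxta (1.26, SE 0.17, adjusted p = 0.0402) and the Nodal antagonist gene lft1 (1.34, SE 0.19, adjusted p = 0.0462) rose. Calls for tbxta and lft1 were lost without any single array, with adjusted p up to 0.165 and 0.181, whereas tbx16 passed without each array in turn. Both were also lost without background correction (adjusted p = 0.0515 for tbxta and 0.0591 for lft1, limma). In the authors' value table tbxta did not pass (adjusted p = 0.0512, limma), while lft1 did (adjusted p = 0.0104, limma).

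**Figure D4:**
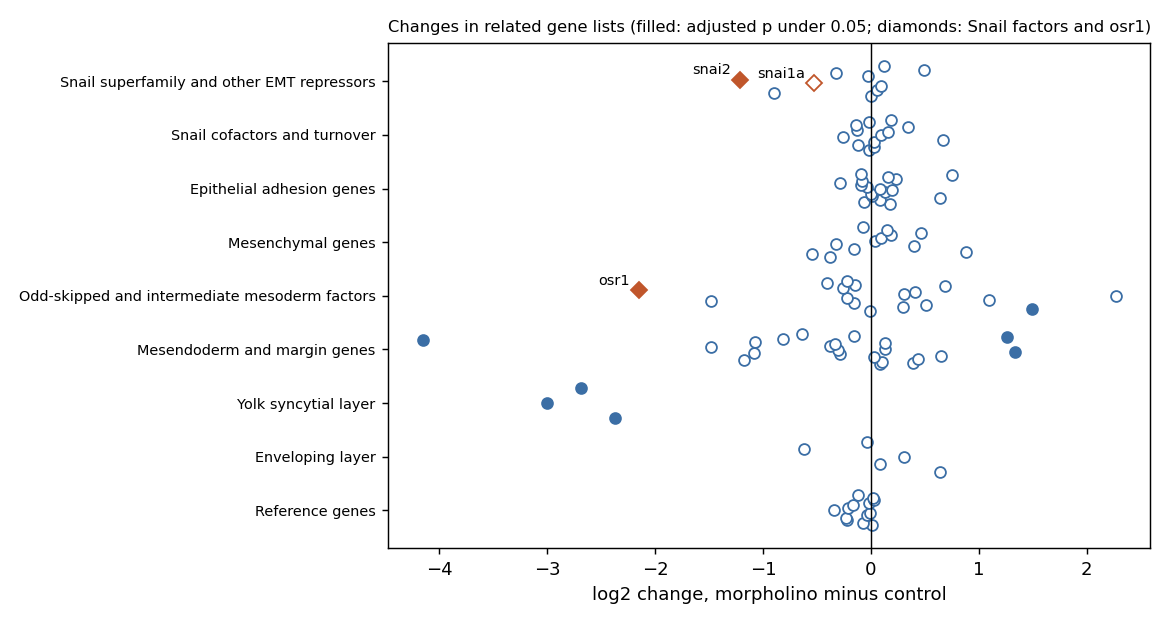
Log2 change, morpholino minus control (horizontal axis), of each measured gene in lists around the Snail factors and osr1 (rows; the height within a row has no meaning). Filled symbols had an adjusted p under 0.05. The diamonds mark snai2 at -1.21, snai1a at -0.53 and osr1 at -2.15; the adhesion genes lie between -0.29 and 0.75, and the 3 yolk syncytial layer genes between -3.00 and -2.37.

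In whole embryos, fewer cells that express a gene and less RNA per cell cannot be told apart. Markers of the yolk syncytial layer were lower in morpholino embryos, as were snai2 and osr1. Over all targets 0.39% were called lower and 0.26% higher, with 5.03% and 5.3% at an unadjusted p under 0.05. All 3 measured markers were lower: mxtx2 by -2.69 (adjusted p = 0.0447), hnf4a by -3.00 (adjusted p = 0.0159) and gata6 by -2.37 (adjusted p = 0.0208, limma). These are values of the brightest target of each gene, and the other target of hnf4a did not pass. The summed linear intensity of the 3 ran from 3660 to 6350 in controls and from 555 to 1200 in morpholino embryos. In morpholino embryos hnf4a (6.27) and gata6 (6.68) were below the 25th percentile of target means (6.74), while mxtx2 stood at 9.32. Whether hnf4a and gata6 were still expressed there cannot be told from such dim values. With 1 array left out, mxtx2 passed in 1, hnf4a in 2 and gata6 in 1 of the 6 fits, with adjusted p up to 0.185, 0.0902 and 0.110. The call of mxtx2 was also lost without background correction (adjusted p = 0.0624). With the replicate block mxtx2 (adjusted p = 0.0938) and gata6 (adjusted p = 0.0698) did not pass in limma, while hnf4a did (adjusted p = 0.0355). Of 5 enveloping layer markers, 3 of which are also in the adhesion list, 0 were lower and 0 higher, with 0 and 1 at an unadjusted p under 0.05, and their sums overlapped, from 26200 to 46800 in controls and from 33000 to 48900 in morpholino embryos. The part of these cell layers in the levels of snai2, snai1a and osr1 was not tested.

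For each member the named genes with the most similar profile over the 6 arrays are given as a description, chosen from 8359 to 8361 named targets above the median brightness, so that high correlations are common. All points share the same arrays and group difference. Closest to snai2 were irx1b (r = 0.9988), an Iroquois homeobox gene, depdc7a (0.9974) and arl4ab (0.9968), a small GTPase gene, with log2 changes of -3.65, -1.51 and -3.11. Closest to osr1, among those reported here, were morc3b (0.9997) and slc48a1a (0.9979), a heme transporter gene, with changes of -3.52 and -0.56. Closest to snai1a were taf9 (0.9957), which encodes a subunit of the general factor TFIID, polr3gla (0.9946), which encodes an RNA polymerase III subunit, and ubac2 (0.9939), with changes of -0.26, -2.95 and -0.41. Of these irx1b, depdc7a, arl4ab, morc3b and polr3gla passed the test (adjusted p = 0.00708, 0.0187, 0.00688, 0.00179 and 0.00509), though depdc7a passed without control replicate 1 and was lost without any other single array (adjusted p of 0.0633 to 0.101). The genes slc48a1a, taf9 and ubac2 did not pass the test (adjusted p = 0.094, 0.407 and 0.241, limma).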

How the data were processed

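The deposited array files hold, per the file headers, the linear mean intensity over a target's perfect-match probes, the number of probes and, as a ratio, the variation coefficient of those probes. A second, series-wide table of intensities came from the authors, and the submitters' processing notes name RMA. Its column medians were 179.39 to 200.32, its values were linear, and its centring stays unknown. The number of arrays limits the precision.

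Here intensities were background-corrected with normexp (offset 50), quantile normalized, taken to log2 and tested with limma 3.58.1 in R 4.3.3 (group as the only term, 2-sided, Benjamini-Hochberg over 38489 targets, 95% intervals from the moderated fit). Intervals for pairs of genes used 4 degrees of freedom. Fold changes understate dim targets. Quantile normalization and the limma fit were also run on simulated log2 values with known changes and independent noise. Background correction and array ranges were not part of that run. A gene of the lists was represented by its brightest target, named by RefSeq accession, current or unique older symbol, or map marker. Not every listed gene had such a target. Members included, 10 of 17 genes of the Snail superfamily list, 17 of 26 adhesion and 12 of 16 mesenchymal genes were measured. For the intermediate mesoderm list this was 17 of 22 and for the margin list 22 of 29. Names came from a RefSeq table of GRCz12tu, with no coordinate used.

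The members and lists were chosen with earlier results of these data known. Every member target is named, each list's genes that passed or else its 2 largest changes, and the 3 genes most similar to each member, of which 1 is not reported here. Counts of the list with the Snail superfamily and of the intermediate mesoderm list leave out the members. The design had planned 6 pairs of member genes, of which 3 could be made. Same-numbered control and morpholino arrays did not deviate together (correlations of -0.013, -0.097 and 0.171), so the numbers were not taken as pairs. Alternatives were other background and scaling, the RMA table, a filter on dim targets, blocks, and leaving out each array.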

Additional observations from a re-analysis of the deposited data

How the results depend on the processing

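All 4 member targets were lower in morpholino embryos under every alternative run. Over the alternatives that kept all arrays, log2 changes ran from -3.04 to -1.83 for osr1, -1.34 to -1.18 for snai2, and -0.66 to -0.47 and -0.62 to -0.42 for the snai1a targets, which passed nowhere. The call of osr1 was lost with the array number range as a block (-2.29) and that of snai2 with the same block (-1.24) and with the replicate block (-1.21, adjusted p = 0.0652). Same-numbered arrays did not deviate together, but so few arrays cannot settle whether the replicate numbers pair anything. Leaving out 1 array gave -1.31 to -1.14 for snai2. Differences between pairs of members were run only without background correction, in the authors' value table and without each array, and kept their sign. Over all targets, 150 lower and 100 higher became 88 and 45 with the replicate block, 0 and 0 with the range block, which leaves 1 morpholino array (1676 and 1906 at an unadjusted p under 0.05), 60 to 119 lower and 35 to 66 higher without 1 array, and 163 higher in the authors' table. The next counts leave out the lists of cell type and tissue markers, and so the 3 yolk syncytial layer markers called lower. Among the other list genes that are not members, 1 lower and 3 higher became 2 and 0 with the replicate block. Without 1 array these counts were 1 to 2 and 0 to 1, and without background correction 1 gene was higher. Where no array was left out, the cause was not tested. No detection call was in the columns used here, which limits the level of osr1 in morpholino embryos.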

Other observations

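A target that carries no zebrafish symbol, ZV700S00005835 (Zv7 23:45705054-45711529), is described in the array design by the human gene SNAI2. It had no map marker and is not counted as a Snail member. Its level was 10.01 ± 0.44 in control and 9.29 ± 0.31 in morpholino embryos (log2, SD, n = 3), a log2 change of -0.72 (SE 0.26, adjusted p = 0.404, limma). Its groups did not overlap but were only 0.09 log2 units apart. For 7.97% of all targets every morpholino array lay below every control array. The coefficient of variation over its probes was 0.932 to 1.22 on the 6 arrays. In the authors' value table its log2 change was -1.05 (adjusted p = 0.284, limma). The target ZV700S00001519, which the design describes by a related name, has no human symbol in the field read here. It was dim in both groups (6.24 and 6.24 on the log2 scale). A target described by human OSR1 at Zv7 24:12543840-12630564, BC044183.1, is listed both as odd-skipped related 1 and as oxidative-stress responsive 1, and lies on another chromosome than the osr1 target. Its log2 change was 0.03 (SE 0.11, adjusted p = 0.97, limma).

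Among the intermediate mesoderm genes, 2 were singled out after their values were seen. The LIM homeobox gene lhx1b stood at 7.16 ± 0.77 in control and 9.44 ± 0.35 in morpholino embryos (log2, SD, n = 3), a log2 change of 2.27 (SE 0.39, adjusted p = 0.0968, limma). The call was made on the authors' value table (2.49, adjusted p = 0.0045), with median scaling (adjusted p = 0.029), with arrays centred on reference genes (adjusted p = 0.0435) and with the filter on dim targets (adjusted p = 0.0452). It was not made without background correction (adjusted p = 0.104), with an offset of 16 (adjusted p = 0.0931) or with the replicate block (adjusted p = 0.179, limma). Nor was it made with any 1 array left out (adjusted p of 0.0547 to 0.268, limma). The homeobox gene hnf1ba stood at 9.52 ± 0.61 and 8.04 ± 0.46, a log2 change of -1.48 (SE 0.36, adjusted p = 0.22, limma), and passed only with the replicate block (adjusted p = 0.0427).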
